A study of Mus musculus with 217 samples.

Results

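Col10a1 encodes the single chain of collagen X, a short network-forming collagen that is laid down around hypertrophic chondrocytes. Its values were followed as 1 of 9739 measured genes across single cells of the mouse growth plate. Every cell carried the same description: Wild type, strain C57/BL, from the growth plate of the tibia on postnatal day 7, with polyA RNA copied by the SMARTer method before Nextera XT library preparation. The cells were therefore 1 group and 1 sample with no named animal, no test was possible, and each SD or correlation below describes cells of that sample, which are not replicates. Of 217 columns, 52 fell into 23 sets that correlated above 0.95 and were averaged, and 1 column (Cell_204) that resembled a mixture was left out, and each remaining profile was treated as a distinct cell. Col10a1 was described in the profiles that held Acan, the gene of the cartilage proteoglycan aggrecan, at 5 or more on the log2 scale, and 11 profiles fell below this. The lowest Acan value kept was 6.67 and the highest left out was 2.91.

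In the growth plate, chondrocytes divide in columns, stop dividing, enlarge and then mineralize the matrix around them before bone replaces it. Collagen X is made late in this course, and its gene is the usual marker of the hypertrophic zone. Its transcription is known to depend on factors of the Runx, Mef2 and Foxa families, whereas Sox9, the factor that specifies chondrocytes, is required early and is lost late.

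All levels are given as log2(value + 1), the scale of the deposited table. Depth per cell is unknown because the values were scaled before deposit, and the unit of abundance is not given in the sources used here, so that levels were not compared between genes. Back-transformed totals per column ran from 394406 to 616257. Profiles held 1326 to 4994 detected genes (median 3463.5), where detected means a log2 level of at least 1. An exact 0 can be a failed estimate. Apart from Acan, by which they were chosen, the profiles left in carried other cartilage genes. Sox9, Col9a1 and Col11a1 were detected in 100% of them. Col2a1, the gene of the main cartilage collagen, was detected in 21% and reached at most 3.14, and its zeros may be failed estimates. Of the marker genes of other cell types, 1 endothelial, 4 macrophage and 2 muscle genes were measured, and none of these was detected in 20% of profiles. The summed level of each of these lists had a median of 0 where Col10a1 was under 1 and where it was 9 or more. Some genes of other lists were widely detected, namely the osteoclast gene Ctsk (68.2%, with Mmp9 at 2.84%) and the perichondrial and fibroblast genes Lum (98.9%), Dcn (40.9%) and Col3a1 (33.5%). The summed level of the osteoclast list had medians of 4.81 with Col10a1 under 1 and 6.18 at 9 or more, and that of the perichondrial list 11.50 and 12.39.

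Col10a1 (ENSMUSG00000039462.4) lies on the plus strand at chr10:34389981-34397085 in build mm10 (GRCm38). Its transcript has 3 exons. The first is untranslated, the start codon is in exon 2, and exon 3, at chr10:34394188-34397085, holds most of the coding sequence and the 3′ UTR. The whole gene sits inside Nt5dc1, which runs on the opposite strand at chr10:34288288-34418552, and 18 of the 3130 exon bases of Col10a1 are also exon bases of Nt5dc1. The labels do not say that strand was used in counting, so reads from the shared bases cannot be told apart. Nt5dc1 was detected in 57 profiles (32.4%) and correlated with Col10a1 at a Spearman rho of 0.33.

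The 250 bases before the transcription start, from RefSeq (GRCm38.p6, plus strand, 5′ to 3′, chr10:34389731-34389980), are shown because they are the stretch that sets where transcription of this gene begins, and capitals mark the only motif found among those searched.
Col10a1 promoter: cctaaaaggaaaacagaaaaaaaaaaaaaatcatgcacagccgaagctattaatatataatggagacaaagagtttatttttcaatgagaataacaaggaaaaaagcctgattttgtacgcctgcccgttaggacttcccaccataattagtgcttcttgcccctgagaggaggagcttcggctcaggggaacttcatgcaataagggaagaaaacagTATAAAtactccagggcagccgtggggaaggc
The capitals are a TATA box (TATAAA), which begins 32 bases before the start and is found on either strand in 12.4% of 32851 promoters of the same length. The Runx core TGTGGT, present in 14% of promoters, has no match on either strand. The AP-1 site as TGACTCA or TGAGTCA (4.46% of promoters), the forkhead site as TGTTTAC or TGTTTGC (7.29%) and the MEF2 site (2.92%) have none either. The letters searched for MEF2 are not given here, and the lack of a match rests on that pattern. A lack of these letters in this window says nothing about binding elsewhere.

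Col10a1 was spread from 0 to high levels among the Acan-positive profiles. It was detected in 77.8% of profiles, all but 39 (exact Clopper-Pearson 95% interval 71 to 83.7%; intervals here cover counting error only). The level ran from 0 through a lower quartile of 2.07, a median of 7.59 and an upper quartile of 10.16 to 14.62, with a mean of 6.58 ± 4.34 (SD over profiles). It was exactly 0 in 27 profiles and above 0 but under 1 in 12 more. Where it was detected, its median was 8.91 and its mean 8.42 ± 2.97 (SD over those profiles).

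The values fell into a mode near 0 and a broad mode at high levels with few profiles between them. A smoothed density had its peaks at 0.38 and 9.69 and its minimum at 3.49. Of the profiles, 39 (22.2%) lay under 1, 19 (10.8%) from 1 to 5, 52 (29.5%) from 5 to 9 and 66 (37.5%) at 9 or more. These 4 bands were chosen after the distribution was seen. The bins from 1 to 2, 2 to 3 and 3 to 4 held 5, 4 and 4 profiles, and that from 10 to 11 held 20. Median genes detected were 3025, 3347, 3560.5 and 3582 in the 4 bands, so that the lowest band also had the fewest genes. The part of this difference in the Col10a1 values was not tested.

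**Figure D1:**
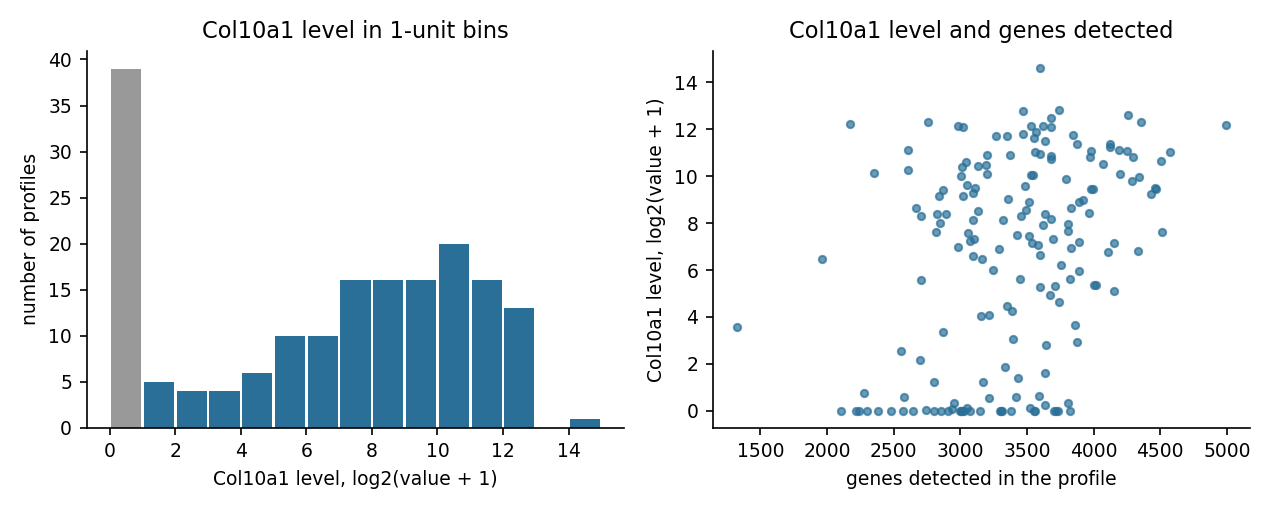
Number of chondrocyte profiles (vertical axis) by Col10a1 level in bins of 1 log2 unit (horizontal axis), for the profiles with Acan at 5 or more. The first bin holds 39 profiles, the bins between 1 and 4 hold 4 or 5 each, and the fullest bin above them holds 20.

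No other widely detected gene varied as much between these profiles. Among the 5380 genes detected in at least 20% of profiles, Col10a1 had the largest SD, followed by Tnfaip6 (4.17), which encodes a hyaluronan-binding protein, Inhba (3.85), an activin subunit, and F3 (3.74), the gene of tissue factor. The 371 genes detected about as often, within 5 percentage points, had a median SD of 2.58 and a highest of 3.50. The 24 other collagen chains measured had a median SD of 1.15, and none reached that of Col10a1. Col9a1 and Col11a1, which belong to the fibrils of cartilage, had SDs of 0.57 and 0.55. Col8a2, a chain of the collagen VIII family of short network collagens to which collagen X is related, was detected in 8.0% of profiles.

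Most of the back-transformed Col10a1 signal came from few profiles. The 18 profiles of highest level held 57% of it and the upper 88 held 98.3%. Col10a1 made up 6.02% of the summed back-transformed values in the profile where it was highest, more than 1% in 8 profiles, and 0.0400% in the median profile.

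Columns grouped as repeats had Col10a1 values closer than those of different profiles. The columns were grouped because they correlated above 0.95 over all genes, Col10a1 included, so some closeness within sets follows from the grouping. In 13 of the 23 sets every column was detected, in 8 none was, and in 2 the columns disagreed, with values of 0 and 2.45 in the first of these and 1.24 and 0 in the other. The highest set read 14.72, 14.19 and 14.95. Another set of 3 read 7.33, 7.76 and 7.94, and a set of 2 read 9.79 and 8.05, the widest gap among the sets with every column detected. The pooled SD within sets was 0.61 against 4.34 between profiles. The labels do not say what such columns share, so the SD within sets covers only the steps after the point at which they parted.

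**Figure D2:**
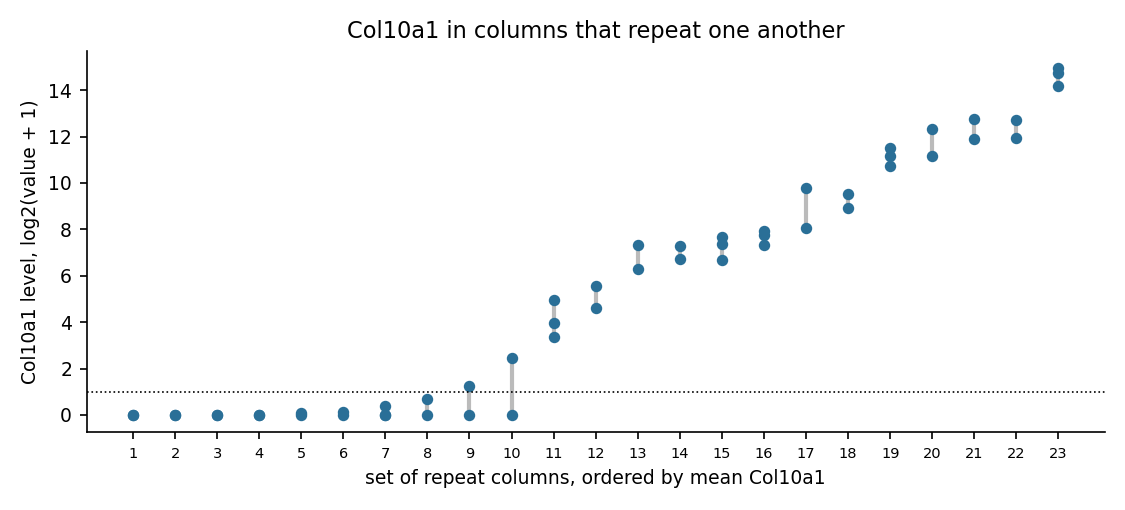
Col10a1 level (log2(value + 1), vertical axis) in each column of the 23 sets of repeat columns, ordered by set mean along the horizontal axis; grey lines join the columns of a set and the dotted line marks the detection limit of 1. The 8 sets with no detected column stay under 1, 2 sets cross the limit, and the 13 sets with every column detected span at most 1.74 each.

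The 11 profiles with Acan under 5 almost lacked Col10a1. It was exactly 0 in 9 of them and read 3.10 and 1.45 in the other two, so that 18.2% were detected (interval 2.28 to 51.8%). Those 2 profiles held Col1a1, the gene of the main bone collagen, at 7.47 and 12.39 and Ibsp, which encodes bone sialoprotein, at 5.36 and 14.38. Ibsp exceeded 12 in 6 of the 9 profiles with Col10a1 at 0, so that these 6 held this mineralized-matrix gene without Col10a1. The same 6 held Col1a1 at 11.50 to 13.28. In Cell_069 and Cell_110, Acan, Ibsp, Col1a1 and Sox9 were also 0, so their 0 for Col10a1 may be a failed estimate.

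Across the chondrocyte profiles, each of 5379 other genes detected in at least 20% of profiles was correlated with Col10a1. A rho of at least 0.25 was found for 317 genes (5.89%) and of at most -0.25 for 97 (1.8%), and 67.7% of genes lay above 0, with a median of 0.06. Col10a1 itself correlated with the number of genes detected per profile (rho = 0.33). With that number held fixed, the median was 0.0005, 2.71% of genes were at 0.25 or more, 2.44% at -0.25 or less, and 50.2% lay above 0. With upper-quartile scaling of the profiles, in contrast, 567 genes reached 0.25 and 38 reached -0.25, so the balance between the directions depends on the scaling. Over the profiles with Col10a1 detected, 3.29% of 5526 genes reached 0.25, 1.94% reached -0.25 and 60.1% lay above 0, and with genes detected held fixed as well these shares were 2.19%, 2.19% and 51.6%. The genes at the high end were largely shared: every gene at 0.25 or more with the control was among the 317, of which they were 46.1%, and 44 of the 50 highest genes were the same with and without the control. All points share 1 sample, and depth per cell is unknown.

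**Figure D3:**
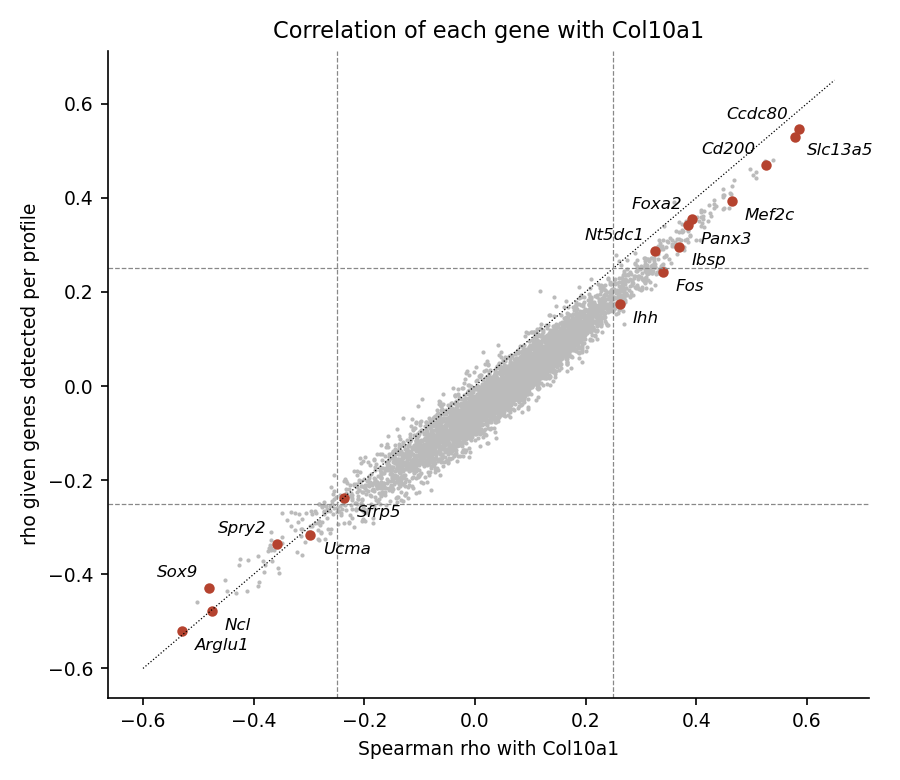
Spearman rho of each of 5379 genes with Col10a1 (horizontal axis) against the rho with genes detected per profile held fixed (vertical axis); dashed lines mark 0.25 and -0.25, the dotted line equality, and named genes are in red. Most genes shift down by a small amount, and Ccdc80, Slc13a5, Arglu1, Ncl and Sox9 stay at the ends on both axes.

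The gene most like Col10a1 was Ccdc80, which encodes a secreted protein of the extracellular matrix. Its level ran from 0 through a median of 7.99 to 10.27 where Col10a1 was under 1, and from 4.24 through 9.81 to 11.68 where Col10a1 was 9 or more. The ranges overlap, and the medians of the 2 bands between were 8.97 and 9.01. Its rho was 0.59 over all profiles, 0.55 with genes detected held fixed and 0.46 over the profiles with Col10a1 detected.

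Slc13a5, the gene of a plasma membrane citrate transporter, came next and differed mainly in how often it was detected. It was found in 11 of 39 profiles with Col10a1 under 1, 14 of 19 from 1 to 5, 36 of 52 from 5 to 9 and 61 of 66 at 9 or more, with medians of 0, 3.65, 3.74 and 5.52. Its rho was 0.58 (0.53 with genes detected held fixed, 0.41 where Col10a1 was detected). Both its share and its median were thus higher in each band than in the lowest, and higher again at 9 or more.

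Other genes were instead concentrated in the band of highest Col10a1. Enpp2, which encodes autotaxin, the enzyme that makes lysophosphatidic acid, was detected in 5 of 39, 4 of 19, 14 of 52 and 46 of 66 profiles of the 4 bands (rho = 0.54). Cd200, a cell surface glycoprotein, was detected in 7, 5, 26 and 52 of them (rho = 0.53), with a median of 6.07 at 9 or more and 0 under 1. Ptgis, the gene of prostacyclin synthase, was detected in 7, 8, 22 and 48 (rho = 0.52). Within the profiles with Col10a1 detected, Enpp2 (0.51), Cd200 (0.48), Nt5e (0.48), Ccdc80 and Map1lc3b (0.46) had the highest correlations. Nt5e encodes the surface enzyme that makes adenosine from AMP, and Map1lc3b an autophagosome protein.

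The other genes among the 15 highest had rho values of 0.46 to 0.51. They were Lmcd1, a LIM domain protein, Unc5b, a netrin receptor, Lgmn, the lysosomal protease legumain, Cpe, carboxypeptidase E, Serinc5, a membrane protein, Isg20, an interferon-induced exonuclease, Ddit4l, an inhibitor of mTOR signalling, the transcription factor Mef2c, Dap, a regulator of autophagy, and Ugp2. Ugp2 makes UDP-glucose, a precursor of proteoglycan sugar chains, and its medians in the 4 bands were 4.35, 7.24, 8.14 and 8.67.

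**Figure D4:**
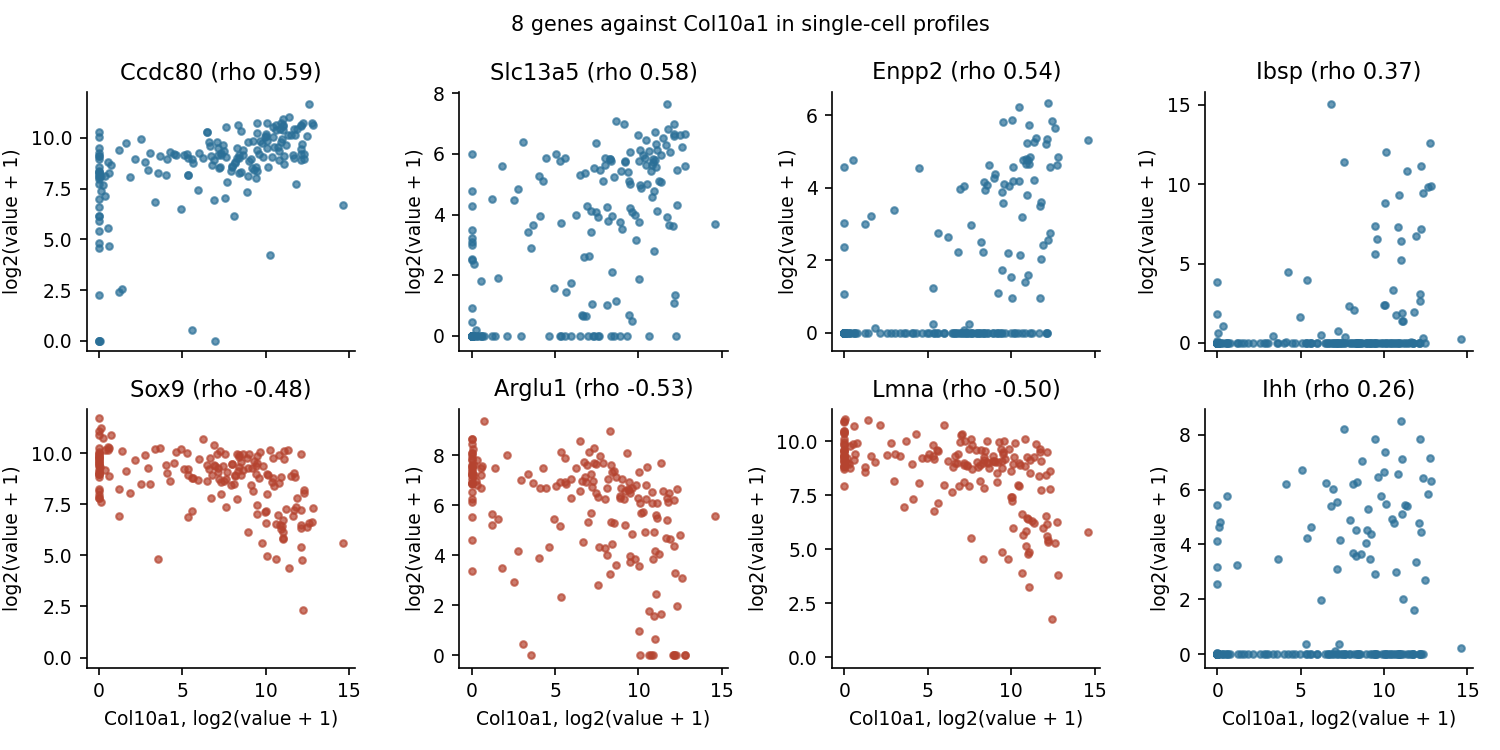
Level of 8 genes (vertical axes, log2(value + 1)) against Col10a1 (horizontal axes, same scale) in the chondrocyte profiles, 1 point per profile, with positive correlations in blue and negative in red. Ccdc80, Slc13a5, Enpp2, Ibsp and Ihh are higher or more often detected towards the right, whereas Sox9, Arglu1 and Lmna reach low levels mostly among profiles with Col10a1 at 9 or more.

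At the opposite end stood Arglu1 (rho = -0.53), a nuclear protein of transcription and splicing, Lmna (-0.50), which encodes lamins A and C of the nuclear envelope, Ptges3 (-0.49), an Hsp90 co-chaperone, Sox9 (-0.48) and Ncl (-0.48), the gene of nucleolin. Srsf2, a splicing factor, Foxn2, a forkhead factor, Srxn1, an antioxidant reductase, AI597468 and the ribosomal protein gene Rps25 completed the 10 lowest, at -0.45 to -0.42. With genes detected held fixed, Arglu1 stood at -0.52, Ncl at -0.48, Lmna at -0.46 and Sox9 at -0.43.

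Sox9 did not decline evenly along Col10a1. Its median was 9.61 (7.59 to 11.69) with Col10a1 under 1, 9.26 from 1 to 5, 9.19 from 5 to 9 and 7.63 (2.34 to 10.17) at 9 or more. Levels under 7, a limit set after the values were seen, occurred in 0 of 39, 2 of 19, 2 of 52 and 24 of 66 profiles. Among the 110 profiles with Col10a1 under 9 the rho of the pair was -0.17, and among the 66 at 9 or more it was -0.39.

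Profiles of high Col10a1 thus differed in Sox9: 24 had it under 7 and 42 at 7 or more, while their Col10a1 levels overlapped (9.80 to 14.62, median 11.06, against 9.01 to 12.82, median 10.41). Lmna was low in largely the same profiles. Of the 66, 24 had Sox9 under 7, 26 had Lmna under 7 and 22 had both, and the rho of Sox9 with Lmna was 0.79 there against 0.38 in the other 110 profiles. Arglu1 had a median of 1.72 in the 24 and 6.18 in the 42. Spry2, a feedback inhibitor of FGF signalling, had medians of 2.37 and 7.30 in the same order.

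A number of genes, named here after their values were seen, were detected in larger shares of the 24 low-Sox9 profiles than of the 42. Ibsp was detected in 15 of 24 (62.5%, interval 40.6 to 81.2%) and in 12 of 42 (28.6%, 15.7 to 44.6%). Spp1, the gene of osteopontin, was detected in 13 of 24 (54.2%, 32.8 to 74.4%) and 9 of 42 (21.4%, 10.3 to 36.8%), so the intervals overlap for both. Genes of other kinds had larger shares too: Enpp2 83.3% and 61.9%, Cd200 95.8% and 69%, Isg20 79.2% and 47.6%, and Mef2c 75% and 50%. The bone collagen gene Col1a1 was detected in 37.5% and 14.3%, and the part of RNA from bone cells was not tested. The intervals overlap for each of these genes as well. Ihh, a hedgehog ligand made before and during early hypertrophy, was detected in 15 of 24 and 15 of 42. Acan, by which all profiles were chosen, was not lower in the 24 (8.16 to 11.02, median 9.89) than in the 42 (7.70 to 10.48, median 9.17). The stress-responsive genes Fos (medians 8.93 and 7.65) and Atf3 (7.35 and 6.27) also differed. Median genes detected were 3680.5 and 3477.5. The part of either in these differences was not tested.

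Of the lists of related genes, the prehypertrophic one correlated most with Col10a1. Its median rho was 0.30 over the 10 of 11 measured members that passed the detection filter, against 0.06 over all genes, and 0.22 with genes detected held fixed. Of the 10, 9 lay above 0 and 6 reached 0.25, against 67.7% and 5.89% of all genes. The 6 were Mef2c (0.46), the forkhead factors Foxa3 (0.41) and Foxa2 (0.39), the channel gene Panx3 (0.39), the growth factor Bmp6 (0.34) and Ihh (0.26). Runx3 had 0.23, Sp7 0.09 and the hedgehog receptor Ptch1 -0.05.

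Nearly every profile with Mef2c also held Col10a1. It was detected in 69 profiles, of which 67 (97.1%, interval 89.9 to 99.6%) also held Col10a1, whereas Col10a1 was found in 65.4% (55.6 to 74.4%) of the profiles without Mef2c. By band it was detected in 2 of 39, 3 of 19, 25 of 52 and 39 of 66. In the other direction, Mef2c was detected in 48.9% of the profiles with Col10a1. Median genes detected were 3633 with Mef2c and 3306 without. Foxa2 was detected in 1, 5, 17 and 31 profiles of the 4 bands.

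Panx3 and Foxa3 had their lowest medians where Col10a1 was under 1, with ranges that overlap those of the other bands. Panx3 was detected in all profiles but 1, with a median of 9.27 under 1 and 10.74, 10.82 and 10.91 in the higher bands. Foxa3 was detected in 13 of 39 profiles under 1 and in 11 of 19, 43 of 52 and 55 of 66 above, with medians of 0, 1.60, 4.17 and 3.96. Where Col10a1 was detected, the rho of Panx3 was 0.16 and that of Foxa3 0.22.

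Runx2, the factor best known for driving collagen X, was found in 18 profiles (10.2%). It was detected in 8 of 39, 0 of 19, 4 of 52 and 6 of 66 profiles of the bands. Col10a1 was present in 55.6% (30.8 to 78.5%) of profiles with Runx2 and in 80.4% (73.3 to 86.3%) of those without. The intervals overlap, and at this detection rate the values set no direction. Across the 16 factors reported to raise Col10a1 that passed the filter, 14 lay above 0 and 6 reached 0.25: Mef2c, Foxa3, Foxa2, Fos (0.34), Fosl2 (0.30) and Dlx3 (0.28). The lowest was Fosl1, at -0.19. Of all genes, 67.7% lay above 0 and 5.89% reached 0.25. The median of the 16 was 0.18, and with genes detected held fixed it was 0.09 and 3 reached 0.25, with Fos at 0.24, Fosl2 at 0.23 and Dlx3 at 0.19. Sp7, detected in 45.5% of profiles, and Atf4, at 0.03, were near the median of all genes. Hdac4, a restrainer of hypertrophy, was detected in 17.6%, under the filter, and had a rho of -0.19. The 6 factors reported to restrain hypertrophy that passed had a median of 0.05, and 3 lay above 0. Sox9 was the only one of them past 0.25 in size, and Trps1 was highest at 0.19. Snai1, also under the filter, had 0.32.

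The hypertrophic and late list, taken without Col10a1, had a median rho of 0.24 over 11 of 15 measured members. It was 0.18 with genes detected held fixed and 0.21 without the filter. Of the 11, 9 lay above 0 and 5 reached 0.25, against 67.7% and 5.89% of all genes. The 5 were the cross-linking enzyme gene Tgm2 (0.39), Ibsp (0.37), the matricellular gene Ctgf (0.32), the cell cycle inhibitor Cdkn1a (0.30) and the actin-severing protein gene Scin (0.26). Spp1 had 0.21, and Mgp, an inhibitor of mineralization, had -0.14. Ibsp, Spp1 and Cdkn1c, whose rho of 0.24 was the list median, passed the filter in 37, 43 and 36 profiles. Of these, 27, 22 and 19 had Col10a1 at 9 or more, and the part of the filter in their rho was not tested.

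The late matrix genes were rare, and the share of their profiles that held Col10a1 can be read against 77.8% of all profiles. Dmp1, a protein of mineralized matrix, was detected in 12 profiles, all with Col10a1 (interval 73.5 to 100%), at Col10a1 levels from 8.38 up with a median of 11.64. Of 37 profiles with Ibsp, 34 held Col10a1 (91.9%, 78.1 to 98.3%), against 74.1% of those without. Of 15 with the collagenase gene Mmp13, 13 did (86.7%, 59.5 to 98.3%), against 77% of those without. Of 43 with Spp1, 35 did (81.4%, 66.6 to 91.6%), against 76.7% of those without. For each of these genes, Dmp1 and Ibsp included, the intervals of the shares with and without the gene overlap. The intervals without the gene reached up to 82.5% for Dmp1 and 81.2% for Ibsp. Most Col10a1 profiles lacked these genes: 24.8% of those with Col10a1 held Ibsp and 9.49% held Mmp13. Ibsp was detected in 3 of 39, 2 of 19, 5 of 52 and 27 of 66 profiles of the bands.

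Ihh and Ibsp overlapped only in part, and Col10a1 was highest by median where both were detected. Col10a1 was detected in 69 of the 98 profiles with neither gene (70.4%), with a median of 6.23. It was detected in 34 of 41 with Ihh alone (82.9%, median 8.12) and in 14 of 17 with Ibsp alone (82.4%, median 9.48). All 20 profiles with both held it (interval 83.2 to 100%), at 6.80 to 12.82 with a median of 11.06. Those 20 also had more genes detected, with a median of 4154.5 against 3209.5 in the profiles with neither, and the part of this was not tested.

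The profile with the highest Col10a1, 14.62, was the mean of 3 columns and carried late matrix genes. Mmp13 read 10.11, 9.19 and 10.14 in them, Spp1 9.12, 9.40 and 8.94, and Dmp1 8.15, 8.12 and 8.23. Counted from the highest, it ranked 3 among all profiles for Mmp13 and 2 for both Spp1 and Dmp1. Ihh was at most 0.72 and Ibsp at most 0.77 in these columns, and Col1a1 was 0 in all 3. Sox9, at 5.62, ranked 8 and Panx3, at 6.24, ranked 11 from the lowest.

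Of the bone matrix genes that passed the filter, those shared with the hypertrophic or mineralization lists correlated most with Col10a1. The median rho of the osteoblast list was 0.22 over 8 of 13 measured members. It was 0.18 with genes detected held fixed and 0.16 without the filter. Of the 8, 4 reached 0.25, against 5.89% of all genes. The 4 were Smpd3 (0.41), a sphingomyelinase needed for mineralization, Sparc (0.39), a matrix glycoprotein, Ibsp, and Phex (0.34), an endopeptidase that acts on phosphate balance. The other members that passed were lower, with Bglap2 at 0.10, Sp7 at 0.09, Serpinf1 at 0.04 and Col1a2, a chain of bone collagen, at -0.04. Phex was detected in 2 of 39, 0 of 19, 9 of 52 and 25 of 66 profiles. Ibsp and Phex passed the filter narrowly, in 37 and 36 profiles, of which 27 and 25 had Col10a1 at 9 or more. The part of the filter in their rho was not tested. The defining bone genes Col1a1 and Bglap were detected in 13.6% and 14.2% of profiles, under the filter, with rho values of 0.16 and 0.10. Ifitm5, a member in none of the other lists, was detected in 15.3%. Its rho was 0.27, or 0.21 with genes detected held fixed. The summed level of the list ran from 13.20 to 39.71 with Col10a1 under 1 and from 17.51 to 72.79 at 9 or more, and the part of RNA from bone cells was not tested. Ibsp, Dmp1, Sp7, Smpd3, Sparc and Phex are shared with the hypertrophic, prehypertrophic or mineralization lists. The mineralization list had a median of 0.17, with Smpd3, Sparc, Phex and the annexin gene Anxa5 (0.27) at 0.25 or more.

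In the BMP pathway, which promotes hypertrophy, 11 of 13 members that passed lay above 0 and 5 reached 0.25, against 67.7% and 5.89% of all genes. The median was 0.19, or 0.12 with genes detected held fixed and 0.18 without the filter. The 5 were the ligands Bmp2 (0.42) and Bmp6, the receptor Bmpr2 (0.32), the pseudoreceptor Bambi (0.43) and the target Id3 (0.26). Bambi passed the filter in 48 profiles, of which 33 had Col10a1 at 9 or more. The part of the filter in its rho was not tested. Bmp2 had medians of 1.69, 2.86, 4.90 and 5.93 in the 4 bands. Bmp6 was detected in 72.7% of profiles, of which 86.7% (79.6 to 92.1%) held Col10a1, against 54.2% (39.2 to 68.6%) of the 48 without Bmp6. Median genes detected were 3589 with Bmp6 and 3016.5 without, and the part of this was not tested. By band Bmp6 was detected in 17 of 39, 16 of 19, 44 of 52 and 51 of 66 profiles.

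Few members of the FGF and hedgehog lists could be followed. Of 5 FGF pathway members that passed, 4 lay at or below 0 and Spry2 was lowest at -0.36, while 67.7% of all genes lay above 0. Of 5 hedgehog members, the signal transducer Smo (0.32) and Ihh reached 0.25, as did 5.89% of all genes, while Ptch1 and Gli3 lay below 0. Gli1, a direct target of the pathway, was detected in 6.8% of profiles.

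Resting zone genes lay on both sides of 0. Ucma, a secreted protein of resting cartilage, had a rho of -0.30 and was detected in 32 of 39, 10 of 19, 38 of 52 and 25 of 66 profiles. Col10a1 was found in 69.5% (59.8 to 78.1%) of profiles with Ucma and in 90.1% (80.7 to 95.9%) of those without. Sfrp5, a Wnt inhibitor, had -0.24 and was detected in 19, 9, 22 and 16 profiles. In the same list Cd200 and Nt5e had 0.53 and 0.40 and Clu, the gene of clusterin, 0.06. The 5 members that passed had a median of 0.06, that of all genes.

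The general cartilage list had a median rho of -0.08 over 18 members, 0.04 with upper-quartile scaling and -0.26 over the profiles with Col10a1 detected. It was split. Comp (0.37), Chad (0.31) and Acan (0.29) were at 0.25 or more, whereas Sox9, Prelp (-0.36), Fmod (-0.29), Scrg1 (-0.28), Epyc (-0.27) and Lect1 (-0.26) were at -0.25 or less. Comp, a pentameric matrix protein, had medians of 8.70, 9.56, 9.65 and 10.13 in the 4 bands. The flat columnar list had a median of -0.02, or 0.14 with upper-quartile scaling, but it is nearly the same set: all of its 8 members that passed except Col27a1 are also in the cartilage list.

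The other collagen chains and the machinery of collagen folding showed little correlation with Col10a1. Of 17 other chains that passed, 7 lay above 0 and only Col5a2, a chain of collagen V, reached 0.25 (0.31; 0.23 with genes detected held fixed). Col2a1 had 0.01. Of 26 genes of collagen modification and secretion, none reached 0.25 in either direction, with Loxl2, a lysyl oxidase, highest at 0.24 and Ppib, a collagen prolyl isomerase, at 0.23. P4ha1, a catalytic subunit of prolyl hydroxylase, had -0.14. Serpinh1, the collagen chaperone, was detected in 2.27% of profiles and reached at most 2.82, and its zeros may be failed estimates. The unfolded protein response list had a median of 0.04 over 12 members, and none reached 0.25.

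Cell cycle genes gave few values. Of 16 measured proliferation genes, 4 passed the filter, with a median rho of 0.00. Mki67 was detected in 15 profiles, of which 10 held Col10a1 (66.7%, 38.4 to 88.2%), and Top2a in 11, of which 6 did (54.5%, 23.4 to 83.3%). Among genes of cell cycle exit the median was 0.20 over 10 members. With genes detected held fixed it was 0.10 and none reached 0.25, while Ccnd1 stood at -0.29. Without that control, Cdkn1a and Gadd45b (0.26) were highest and Ccnd1, the D cyclin that drives division, was lowest at -0.28.

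Immediate-early and heat shock genes, which respond to stress during tissue dissociation as well as to signals in the tissue, were held in 1 list. Of 20 members that passed, 16 lay above 0 (median 0.14) and 6 reached 0.25, against 67.7% and 5.89% of all genes. Atf3 (0.45), Fos, Nr4a1 (0.34) and Fosb (0.33) were the highest. The heat shock members were lower, with Dnajb1 at 0.17, Hspb1 at 0.04 and Hspa8 at -0.19, and Ier3 was lowest at -0.24. With genes detected held fixed the median was 0.05. Then 13 members lay above 0 and 2 reached 0.25, against 50.2% and 2.71% of all genes. The summed level of the 23 measured genes had a median of 75.04 (37.11 to 106.46) with Col10a1 under 1 and 94.37 (48.71 to 149.96) at 9 or more, and its part in the other correlations was not tested. The 78 cytosolic ribosomal protein genes had a median rho of -0.002, or 0.17 with upper-quartile scaling.

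**Figure D5:**
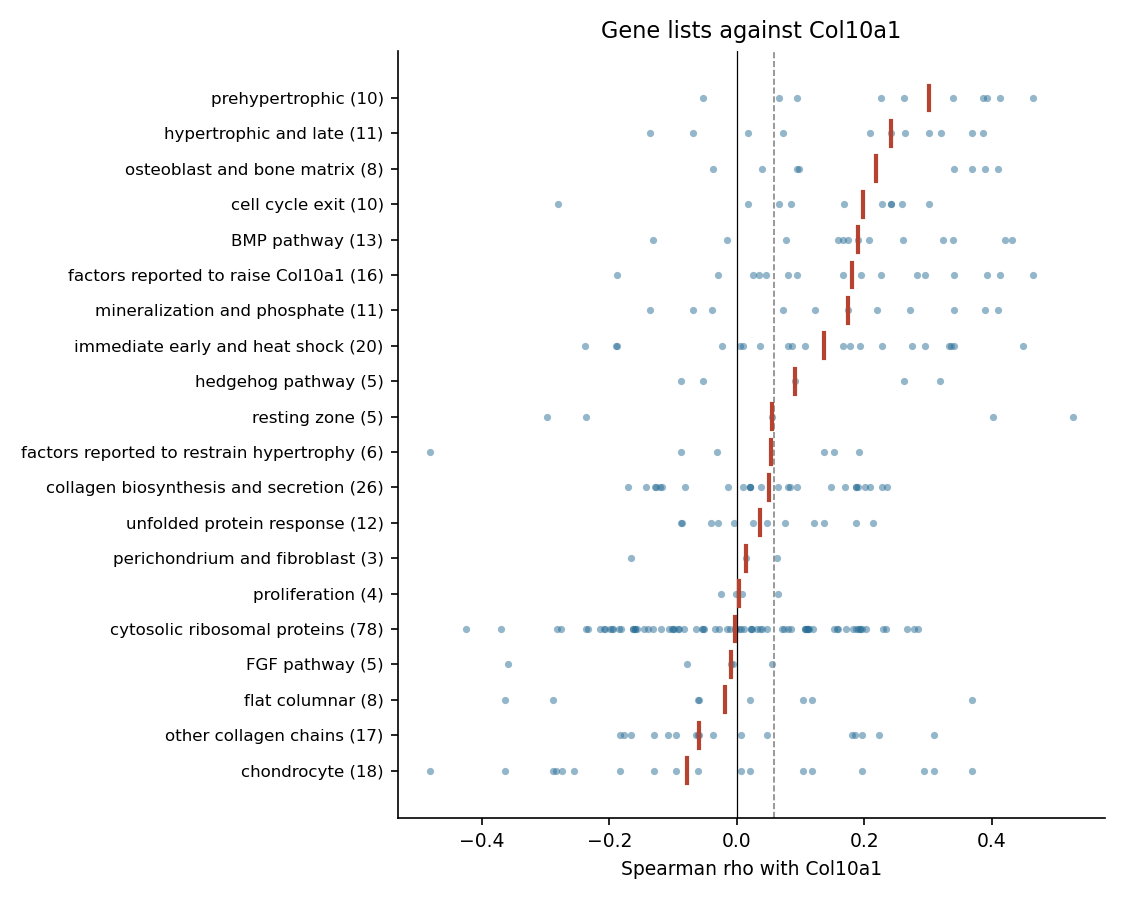
Spearman rho with Col10a1 (horizontal axis) of the members of each gene list (rows) that were detected in at least 20% of the profiles, with their number in brackets; each blue point is a gene, the red bar of each row is the list median, the solid line is 0 and the dashed line is the median of all 5379 genes. The prehypertrophic list (median 0.30) and the hypertrophic and late list (0.24) lie furthest right, and the cartilage list spreads to both sides.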

How the data were processed

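The authors deposited 1 table of log2 expression values with 1 column per cell and 1 row per gene. The base and the pseudocount of 1 were inferred from the values. Reads were aligned with TopHat to mm10, per the submitters' processing notes; the sources used here do not give the quantifier, annotation, filters or abundance unit. Each of the 217 columns bore the name of its cell. Columns with Pearson r above 0.95 were averaged, which with the mixed column left out gave 187 profiles. Of these, 176 had Acan at 5 or more (n for every SD, share and correlation unless stated), and Col10a1 was detected in 137 of them. No doublet caller was run.

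Detection was a log2 level of at least 1. Spearman's rho was computed over genes detected in at least 20% of profiles, and again as a partial rho from ranks given genes detected per profile. A rho past 0.25 in either direction was counted. The named genes were the 15 highest and 10 lowest by rho, the 10 highest and 5 lowest by partial rho, the 5 highest where Col10a1 was detected, genes fixed for co-detection, a fixed set of regulators, and up to 4 members of each list by absolute rho. Other list members, Nt5dc1, Tnfaip6, Inhba and F3, the forkhead and MEF2 motifs, the 4 bands and the limit of 7 for Sox9 were chosen after values were seen. The ribosomal list was chosen by name pattern, and kinases and a binding protein that it caught were dropped. Some listed genes, among them every red blood cell marker, were not analysed here. The members and lists were chosen with earlier results of these data known. The gene model is GENCODE M21. The plain rho was tested on shuffled data with planted correlations, and the shuffling did not keep the dependence on genes detected. The other steps were not tested in this way. The alternatives were other limits on Acan, repeat columns kept apart, the mixed column kept, other detection limits and filters, upper-quartile scaling, Pearson's r and leaving out the profiles with fewest genes. The tools were SciPy 1.17.1, NumPy 2.4.6, NetworkX 3.6.1, pandas 2.3.3 and matplotlib 3.10.9 under Python 3.11.15.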

Additional observations from a re-analysis of the deposited data

How the results depend on the processing

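No paired analysis was possible because all profiles belong to 1 group. The share of profiles with Col10a1 detected was 84.7% when any value above 0 counted, against 77.8%, and stayed within its interval under the other 6 settings, from 71.6% to 81.6%. With upper-quartile scaling, 10.49% of genes (567) reached a rho of 0.25 and 0.703% (38) reached -0.25, and the medians of the cartilage, flat columnar and ribosomal lists became 0.036, 0.136 and 0.172. Without the limit on Acan, 0.706% of genes reached -0.25, and the medians of the cartilage, flat columnar and other collagen lists became 0.0495, 0.12 and 0.0487; 11 profiles low in Acan enter this setting. With genes detected held fixed, 2.71% reached 0.25. Among genes detected in at least 50% of profiles, 7.56% reached 0.25 and 3.31% reached -0.25, of fewer genes. Without a filter on low values 0.996% reached -0.25, and the hedgehog median was -0.0153. The cause of the changes with scaling was not tested. The 62 named genes with a rho past 0.25 in size kept their sign in all 8 settings run for them. Some came close to 0: Rpl5 ran from -0.33 to -0.03 and Rpl9 from -0.41 to -0.10. Ccdc80 ran from 0.50 to 0.63, Mef2c from 0.39 to 0.48, Ibsp from 0.20 to 0.37 and Sox9 from -0.51 to -0.29. The share of profiles with Sox9 under 7 among those with Col10a1 at 9 or more ran from 33.3% to 37.5% in 6 settings added after the data were seen. Depth per cell is unknown, so a gene at 0 in a profile may have been missed, and the rho of a rarely detected gene rests on few profiles. Spread between animals could not be estimated.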
